A study of Mus musculus with 10 samples.

Results

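The small ribosomal subunit is built around its ribosomal RNA by a large set of assembly factors, and 42 genes for such factors were followed in mouse MYC/SMARCA4 medulloblastomas. The members were chosen by name as protein components of the processome, of the box C/D snoRNP core and of the late pre-40S particle. Grouped by role, Utp4, Utp15, Wdr43, Wdr75 and Heatr1 belong to the UTP-A (t-UTP) complex, and Pwp2, Tbl3, Utp6, Utp18, Wdr3 and Wdr36 to the UTP-B complex. The box C/D core and U3 proteins were Fbl, Nop56, Nop58 and Rrp9, with which the snoRNP chaperone Nolc1 was grouped. The MPP10 complex was represented by Mphosph10, Imp3 and Imp4. A further 14 processome factors were Nol6, Utp11, Utp14a, Utp20, Wdr46, Nol10, Nop14, Noc4l, Rrp7a, Rrp36, Dcaf13, Krr1, Bms1 and Rcl1. Emg1, Nat10 and Dimt1 modify the ribosomal RNA, and Bysl, Ltv1, Tsr1, Pno1, Nob1 and Rrp12 act in maturation of the 40S subunit. All 42 were found by symbol among the 50559 genes counted, and all 42 were among the 29952 genes with enough counts to be tested.

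Gene expression had been measured by RNA sequencing of 10 formalin-fixed, paraffin-embedded (FFPE) samples, namely 4 MYC/SMARCA4 tumors, 3 cerebella at postnatal day 7 (P7) and 3 tumors of a Sonic Hedgehog medulloblastoma model (SHH MB). The MYC/SMARCA4 tumors grew from granule cell precursors of Math1-creERT2::Smarca4fl/fl pups, which had received tamoxifen at P3. The precursors were isolated at P7, infected with a lentivirus carrying murine Myc and GFP under a CMV promoter, and transplanted to the cerebellum of CD1nu/nu hosts. Cells that carried the virus or had lost Smarca4 were not selected first. Host mice were 112, 96, 89 and 79 days old for tumors 1 to 4. The P7 cerebella came from 7-day-old Math1-creERT2::Smarca4fl/fl mice that were given 0.4 mg of tamoxifen on postnatal day 3, so the controls went through the same induction of Smarca4 deletion in Math1 cells. The share of these cells that lost the gene was not measured here. The controls are whole cerebella rather than isolated precursors. The SHH MB samples came from 7-day-old Math1-cre::Smofl/wt mice in which Math1-cre, active in granule cell precursors, recombines the Smo allele. Tumors and cerebella therefore differ in age, host strain, culture, virus and cell composition at once, and these cannot be told apart. The 4 tumors came from hosts of different ages. For the P7 cerebella and SHH MB the labels name the libraries as separate samples of a group but do not give the animals. P-values therefore measure only the spread between these samples. All libraries were made from total RNA after depletion of ribosomal RNA.

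Total counts were 6547245, 6945005, 5663491 and 9352109 in tumors 1 to 4, 8958307, 8139778 and 5933515 in the P7 cerebella, and 5930961, 7933586 and 7031248 in the SHH MB libraries. Values are given as counts scaled to 1000000 per library (CPM) after TMM normalization. At this depth 3 counts corresponded to between 0.304 and 0.737 CPM, and the lowest count of any member in any library was 40, so each member was well above the floor in every sample. Counts of the members ran up to 2606. Such floors cover counting error only.

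Ribosome assembly starts in the nucleolus while RNA polymerase I still transcribes the precursor of the ribosomal RNA. The UTP-A, UTP-B and U3 snoRNP complexes bind the nascent precursor and form the small subunit processome, which folds and cleaves it, and later factors accompany the pre-40S particle to the cytoplasm for the last cleavage. MYC is widely known as an activator of ribosome biogenesis genes, and granule cell precursors of the early postnatal cerebellum divide rapidly and need new ribosomes.

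The 4 tumor libraries differed among themselves far more than the others. Tumor 1 had the lowest TMM factor (0.622, against 0.807, 1.27 and 0.884 in tumors 2 to 4 and between 1.01 and 1.19 in the other groups), and its mitochondrial genes took 6.36% of counts, against 2.94%, 2.89% and 2.29% in tumors 2 to 4 and between 1.25% and 1.59% elsewhere. Genes for ribosomal RNA, mitochondrial ones included, together with Lars2 took 1.54%, 1.12%, 0.809% and 0.426% of the reads of tumors 1 to 4, while SHH MB held 0.479% to 0.694% and P7 cerebella 0.133% to 0.174%, so this share separated the tumors from the cerebella. An alternative left mitochondrial and rRNA genes out of the library sizes. The members' median log2 fold change was then 1.405 against P7 cerebella and 0.869 against SHH MB. In the main setting these medians were 1.403 and 0.867. Calls of this alternative are given with the other settings at the end. Any further part of this share in the results was not tested. Reads were found in 36933 and 34735 genes in tumors 1 and 2, and in between 42327 and 45490 genes in the other 8 libraries. Pairs of tumor libraries differed by a chi-square per degree of freedom of between 26.6 and 99.1, whereas pairs within the other groups lay between 3.76 and 6.22. The 24 proliferation genes summed to 239, 3332, 3473 and 3673 CPM in tumors 1 to 4, to 1929, 1428 and 1573 CPM in the P7 cerebella and to 3910.3, 3767 and 4496 CPM in SHH MB. Mki67, which marks cycling cells, was the most abundant of them in every library. Tumor 1 therefore lay below all P7 cerebella in proliferation genes, while tumors 2 to 4 lay between the P7 cerebella and SHH MB. On total counts, without TMM factors, tumor 3 came within the SHH MB range.

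Markers of mature neurons were also uneven. The 12 markers of mature granule neurons summed to 13836, 4604, 570.2 and 2445 CPM in tumors 1 to 4, 1572, 1569 and 1399 CPM in the P7 cerebella and 546, 666 and 731 CPM in SHH MB. The potassium channel gene Kcnd2 was the most abundant of these in every library but tumor 2, where the synaptic gene Snap25 led. The 10 Purkinje cell markers summed to 12913, 3149, 413 and 2284 CPM in the tumors, 1764, 1749.6 and 1637 CPM in the P7 cerebella and 763, 789.6 and 485 CPM in SHH MB, led by Itpr1 throughout. For the 10 markers of myelinating oligodendrocytes, led by Mbp, the tumors gave 4012, 858, 134 and 452 CPM, the P7 cerebella 990.1, 1165 and 1115 CPM and SHH MB 421, 399 and 143 CPM. Tumor 1 was the highest library for all 3 lists, and tumor 3 the lowest of the tumors. No marker of these lists was at 0 in any library. In such bulk samples fewer cells of a type and less RNA per cell cannot be told apart, and the part of other cells in the results on the assembly factors was not tested. Counts of calls are therefore also given without tumor 1. Without it the members' median log2 fold changes were 1.52 against P7 cerebella and 0.91 against SHH MB, where all genes gave -0.25 and -0.15.

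**Figure D1:**
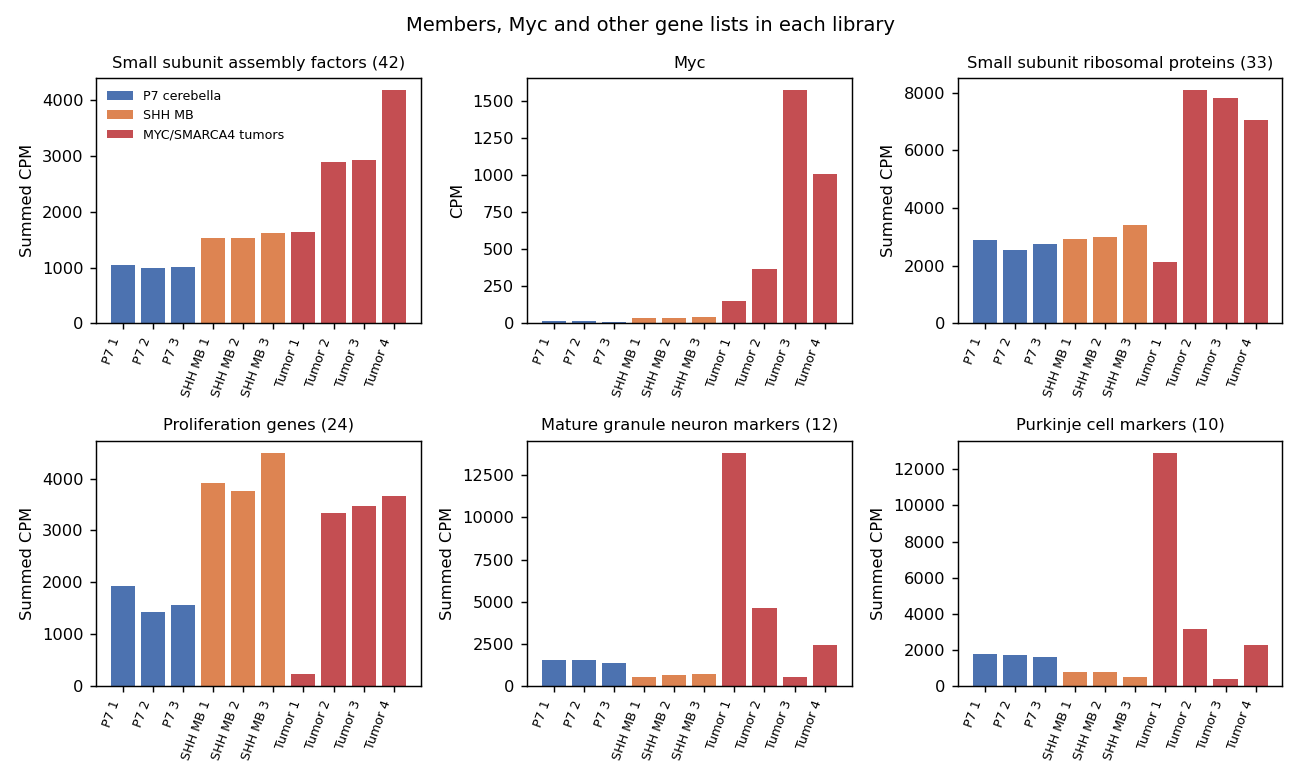
Bars give CPM per library, starting at 0, for the 42 assembly factors summed, Myc, the small subunit ribosomal protein genes summed, and summed lists of proliferation, granule neuron and Purkinje cell genes, in 4 MYC/SMARCA4 tumors, 3 P7 cerebella and 3 SHH MB. After TMM scaling the assembly factors sum to between 1636 and 4173 CPM in the tumors and between 989 and 1053 CPM in the P7 cerebella, and tumor 1 stands apart with 239 CPM of proliferation genes.

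Target genes were looked at before the members. Myc (chr15:61857227-61862223, GRCm39) was counted at 151, 365, 1574 and 1007 CPM in tumors 1 to 4, at 13.1, 14.2 and 12.9 CPM in the P7 cerebella and at 38.1, 33.4 and 45.4 CPM in SHH MB. Every tumor lay above every other library, although the 4 tumors spanned from 151 to 1574 CPM, and reads of the viral Myc and of the mouse gene are counted together. The log2 fold change of 5.85 (SE 0.75, adjusted p = 0.00194) against P7 cerebella and the log2 fold change of 4.31 (SE 0.69, adjusted p = 0.00428) against SHH MB passed the test in the main setting and in all 18 alternatives. Smarca4 (chr9:21527398-21615526) gave 207, 242, 135 and 236 CPM in the tumors, 219, 279.7 and 257 CPM in the P7 cerebella and 542, 486 and 585 CPM in SHH MB. Tumors overlapped with P7 cerebella (log2 fold change of -0.30 (SE 0.28, adjusted p = 0.495)), although on total counts all tumors (128, 195, 171 and 209 per 1000000) lay below all P7 cerebella (242, 317 and 306), and they lay below all SHH MB libraries on both scales (log2 fold change of -1.39 (SE 0.28, adjusted p = 0.0157)). That call against SHH MB was lost without any 1 of the SHH MB libraries, with adjusted p = 0.0991, 0.0824 and 0.122 for libraries 1 to 3, in a fit of the 2 groups alone (0.0585) and with a replicate block (0.0685), within a range of 9.08e-05 to 0.122 over 18 alternatives. Counts cover all exons of Smarca4, so they do not measure the deleted part and do not check the genotype. Mycn (chr12:12986076-12992915), the paralog used by granule cell precursors, was at 1.23, 8.92, 9.16 and 3.99 CPM in the tumors, 93.7, 78.5 and 65.4 CPM in the P7 cerebella and 194, 177 and 201 CPM in SHH MB, and fell against both groups in every setting (log2 fold change of -3.74, SE 0.47, adjusted p = 0.00192 against P7 cerebella and -5.01, SE 0.49, adjusted p = 0.000147 against SHH MB).

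Promoter sequences were read because MYC and MAX bind the E-box CACGTG, which is its own reverse complement, so both strands are searched at once. RefSeq promoter windows (GRCm38.p6) reaching from 250 bases before to 50 bases after the gene start were matched for 34 of the 42 members. Dcaf13, Fbl, Nol6, Rrp12, Tbl3, Utp11, Utp6 and Wdr36 had no entry. A gene was counted if any of its windows held the motif. CACGTG was present in 10 of 34 members (29.4%), against 8.09% of all 27025 genes with an entry and 9.62% of 15319 protein-coding genes. It was present in 11.3% of 5214 protein-coding genes with a GC content between the lower and upper quartile of the members. In the 250 bases before the gene start alone it was present in 4 of 34 (11.8%), against 6.86%, 8.26% and 9.49% of the same 3 sets, so 6 of the 10 matches came from the 50 bases after the start. Among large subunit assembly factors 10 of 42 genes (23.8%) held the motif in the whole window and 4 (9.52%) before the start. Among other small subunit factors these were 4 of 25 (16%) and 3 (12%). Of the RNA polymerase I machinery 2 of 17 genes (11.8%) held it in the whole window, with 1 (5.88%) before the start. Small subunit ribosomal proteins had 1 of 25 (4%) and proliferation genes 1 of 21 (4.76%), on either window. None of these differences was tested. The 10 matches are shown with up to 12 bases on each side, 5′ to 3′ on the strand of the gene, with the motif in capitals.
Wdr43: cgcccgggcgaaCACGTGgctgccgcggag
Utp4: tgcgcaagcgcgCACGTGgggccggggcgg
Utp18: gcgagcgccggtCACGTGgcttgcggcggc
Imp4: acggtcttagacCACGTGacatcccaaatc
Utp20: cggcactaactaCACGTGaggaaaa
Wdr46: aagggagtttcgCACGTGgatcgttgttcg
Rrp7a: gtgcctgtgcacCACGTGtcctggaactgg
Pno1: tgtacaaccacgCACGTGttcctct
Tsr1: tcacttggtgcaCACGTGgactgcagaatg
Ltv1: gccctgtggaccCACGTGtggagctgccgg
The windows lie at chr17:71616220-71616249 (plus) for Wdr43, chr8:106893643-106893672 (plus) for Utp4 and chr11:93885769-93885798 (minus) for Utp18, members of UTP-A and UTP-B. That of Imp4 is at chr1:34439696-34439725 (plus), that of Utp20 at chr10:88826765-88826789 (minus), that of Wdr46 at chr17:33940699-33940728 (plus) and that of Rrp7a at chr15:83122992-83123021 (minus). For the 40S maturation factors the positions are chr11:17211540-17211564 (minus) for Pno1, chr11:74898092-74898121 (plus) for Tsr1 and chr10:13193092-13193121 (minus) for Ltv1. In 6 members the motif starts after the gene start (by 15 bases in Utp4, 17 in Wdr43, 24 in Tsr1, 28 in Ltv1 and 37 in Pno1 and Utp20), and in the other 4 it starts 12 bases (Wdr46), 20 bases (Utp18), 121 bases (Imp4) and 208 bases (Rrp7a) before it. A match describes these letters and not a bound site.

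MYC/SMARCA4 tumors were compared with P7 cerebella, the tissue in which the grafted precursors arise. Most genes for small subunit assembly factors were higher in the tumors. Of the 42 members 32 rose (adjusted p of at most 0.05, edgeR quasi-likelihood test with Benjamini-Hochberg adjustment over all genes tested), against 3.99% of all genes, and 0 fell, against 2.27% of all genes. The rises ranged from 2.14-fold to 4.74-fold (log2 fold change of 1.10 to 2.25, SE 0.23 to 0.48, adjusted p between 0.0081 and 0.0458). Summed over the members, the tumors held 1636, 2896, 2926 and 4173 CPM, the P7 cerebella 1053, 989 and 1007 CPM and SHH MB 1523, 1532 and 1611 CPM, which is 2908 ± 1036 CPM (SD, n = 4) against 1016 ± 33.0 CPM (SD, n = 3) and 1555 ± 48.1 CPM (SD, n = 3). Every tumor lay above every P7 cerebellum in this sum, but on total counts, without TMM factors, tumor 1 (1017 per 1000000) lay below all P7 cerebella (1160.2, 1122 and 1199.6), and tumors 2 to 4 (2336, 3722 and 3689) above them.

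All 42 members were fitted higher in the tumors, and their median log2 fold change was 1.40, against -0.05 over all genes tested. At an unadjusted p of at most 0.05 there were 41 members higher, against 15.3% of all genes, and 0 lower, against 9.98%, while DESeq2 and limma called 0 lower at an adjusted p of at most 0.05, against 4.08% and 1.23% of all genes. In 35 members each tumor lay above each P7 cerebellum, which held for 10.3% of all genes. On total counts it held for 7 members (Nop56, Nol6, Utp20, Nol10, Krr1, Nat10 and Pno1), against 4.11% of all genes, so for the other 28 the separation from P7 cerebella described here rests on the TMM factors. Statements below on single genes, against P7 cerebella and SHH MB alike, are on TMM-scaled CPM unless total counts are named. At a stricter limit (log2 fold change of at least 1.5 and adjusted p of at most 0.01) Utp20 and Nat10 were called, 2 of 42 against 0.26% of all genes. That count was 22 without tumor 1 (against 1.78% of all genes), 7 without tumor 3 (1.65%) and 0 without any 1 of the other 8 libraries. The 10 members that did not pass were Tbl3, Mphosph10, Rrp7a, Rrp36, Utp11, Dcaf13, Emg1, Dimt1, Bysl and Ltv1, with log2 fold changes of 0.71 to 1.33 and adjusted p between 0.0514 and 0.208. The number of calls depended on single libraries and on the scaling. It was 41 without tumor 1, 22 without tumor 2, 34 without tumor 3 and 17 without tumor 4, against 9.64%, 1.77%, 11.8% and 1.80% of all genes. Lower calls made up 22.8% of all genes without tumor 3, with 0 members among them. The count was 20, 20 and 21 without SHH MB 1, 2 and 3, against 1.34%, 1.36% and 1.46% of all genes. Without any 1 of the P7 cerebella 0 members were called, against 0.264%, 0.109% and 0.124% of all genes, with lowest adjusted p = 0.0609, 0.0808 and 0.0727 without P7 cerebellum 1, 2 and 3, and this holds for each member described as risen against P7 cerebella. A fit of the tumors and P7 cerebella alone also called 0 members by edgeR, against 0.206% of all genes, with 36 higher at an unadjusted p of at most 0.05, against 10.1%. With total counts in place of TMM factors the median of all genes moved by -0.36 and 5 members were called, against 1.05% of all genes. The members' median was then 1.52 above that of all genes, where it was 1.45 above in the main setting. The split of all calls then changed from 1194 higher and 680 lower to 315 higher and 1157 lower.

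**Figure D2:**
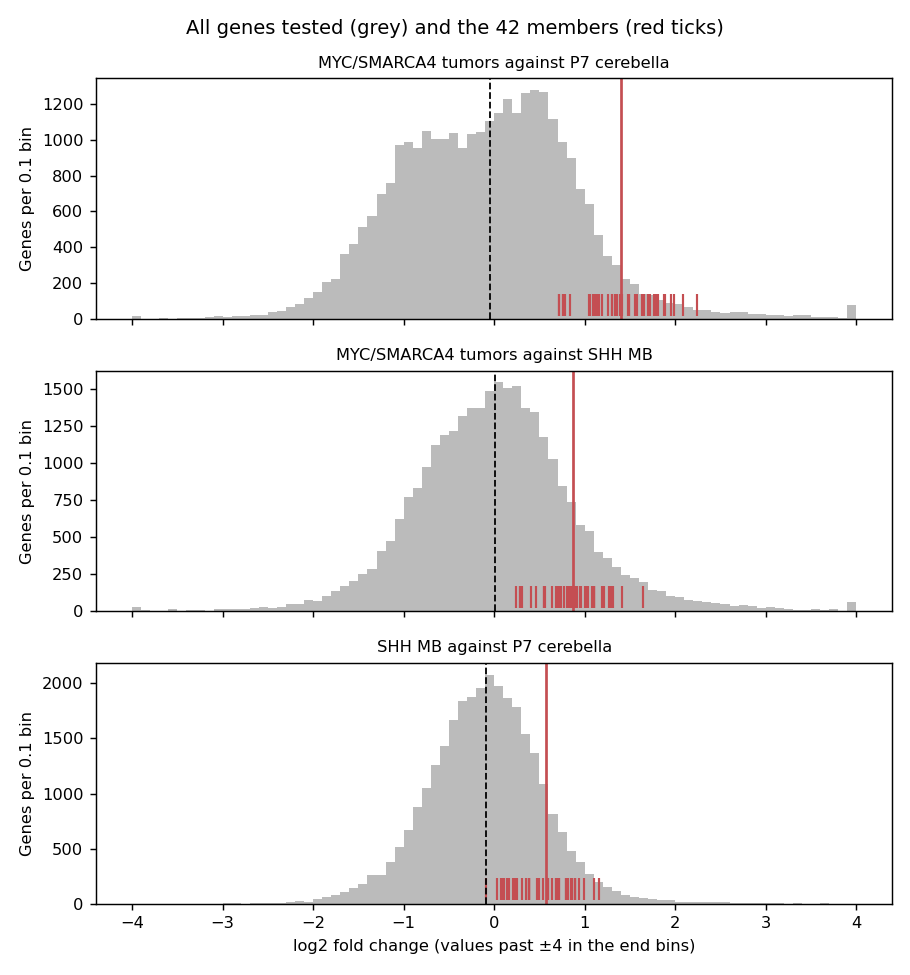
Histograms show the log2 fold changes of all 29952 genes tested in the 3 comparisons, with a tick for each of the 42 members, a dashed line at the median of all genes and a red line at the median of the members. Member medians are 1.40, 0.87 and 0.57, against -0.05, 0.01 and -0.09 for all genes.

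UTP-A proteins bind the start of the nascent precursor and are tied to transcription by RNA polymerase I. All 5 UTP-A genes rose against P7 cerebella, with a median log2 fold change of 1.78. Utp4 (chr8:107619814-107649965, plus strand, GRCm39), a WD-repeat subunit, was at 28.5, 63.5, 59.3 and 119.5 CPM in tumors 1 to 4, 16.9, 16.2 and 14.7 CPM in the P7 cerebella and 18.5, 29.3 and 28.7 CPM in SHH MB. Each tumor exceeded each P7 cerebellum, with a log2 fold change of 2.09 (SE 0.41, adjusted p = 0.0156), but tumor 1 was not above all SHH MB libraries. Wdr43 (chr17:71922890-71966027, plus strand) gave 90.4, 159, 195 and 270.0 CPM in the tumors, 46.3, 40.2 and 52.2 CPM in the P7 cerebella and 81.3, 79.8 and 88.3 CPM in SHH MB. Here all tumors lay above all other libraries, and the log2 fold change of 1.95 (SE 0.34, adjusted p = 0.0104) was the largest of the complex after Utp4. Heatr1 (chr13:12409908-12455170, plus strand), the HEAT-repeat subunit, was at 34.6, 147, 162 and 245 CPM in the tumors, 44.8, 40.1 and 44.1 CPM in the P7 cerebella and 75.0, 74.9 and 76.6 CPM in SHH MB. Tumor 1 lay below all P7 cerebella while tumors 2 to 4 lay far above, and the log2 fold change of 1.78 (SE 0.48, adjusted p = 0.0458) had the highest adjusted p of the 32. Utp15 and Wdr75 completed the complex with log2 fold changes of 1.56 and 1.48. With 1 library left out, between 0 (any P7 cerebellum) and 5 (tumor 1) of these genes were called.

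UTP-B forms a scaffold that holds the processome on the precursor, and 5 of its 6 genes rose (median 1.36). Pwp2 (chr10:78006735-78021026, minus strand) was measured at 28.0, 60.9, 66.8 and 83.0 CPM in the tumors, 20.9, 15.7 and 16.3 CPM in the P7 cerebella and 25.3, 25.0 and 26.8 CPM in SHH MB. The tumors were above every other library, with a log2 fold change of 1.76 (SE 0.34, adjusted p = 0.0136) against P7 cerebella. Wdr36, a WD-repeat subunit of the complex, reached 43.0, 70.3, 69.1 and 108 CPM in the tumors, 25.3, 20.5 and 17.1 CPM in the P7 cerebella and 27.2, 38.3 and 29.4 CPM in SHH MB. Wdr36 too was separated from both other groups after TMM scaling, though not on total counts, with a log2 fold change of 1.79 (SE 0.33, adjusted p = 0.0113). Utp6, Utp18 and Wdr3 rose by log2 fold changes of 1.10, 1.10 and 1.63. Tbl3 did not pass, at 1.06 (adjusted p = 0.0522), although each tumor lay above each P7 cerebellum. Between 0 and 6 genes of the complex were called with 1 library left out, 0 without any P7 cerebellum and 6 without tumor 1.

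Box C/D snoRNPs guide methylation of ribosomal RNA, and the U3 snoRNP of the same class base-pairs with the precursor to allow its folding. All 5 genes grouped in this role rose, with a median log2 fold change of 1.87. The core protein Snu13 is not a member and did not pass, as given below with other small subunit factors. Fbl (chr7:27868353-27878701, plus strand), the methyltransferase fibrillarin, was at 15.5, 34.1, 43.2 and 49.4 CPM in the tumors, 13.9, 12.6 and 13.6 CPM in the P7 cerebella and 30.7, 19.3 and 23.0 CPM in SHH MB. Tumor 1 was barely above the highest P7 cerebellum and below all SHH MB libraries, and the log2 fold change of 1.42 (SE 0.36, adjusted p = 0.0386) was the smallest of the role. Nop56 (chr2:130115808-130121238, plus strand) and Nop58 (chr1:59724106-59758203, plus strand) form the core scaffold beside fibrillarin. Nop56 gave 84.0, 102, 112 and 173 CPM in the tumors, 44.5, 35.8 and 38.2 CPM in the P7 cerebella and 62.3, 65.7 and 66.1 CPM in SHH MB (log2 fold change of 1.58 (SE 0.28, adjusted p = 0.0110)). Nop58 gave 62.2, 137, 143 and 175 CPM in the tumors, 42.6, 27.9 and 34.7 CPM in the P7 cerebella and 73.9, 77.5 and 82.7 CPM in SHH MB (log2 fold change of 1.88 (SE 0.34, adjusted p = 0.0113)). For Nop56 the tumors exceeded both groups, whereas tumor 1 lay below all SHH MB libraries for Nop58.

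Rrp9 (chr9:106353162-106362623, plus strand), which is specific to the U3 snoRNP, was counted at 20.4, 39.1, 52.7 and 62.4 CPM in the tumors, 11.2, 15.6 and 8.91 CPM in the P7 cerebella and 18.2, 13.6 and 10.3 CPM in SHH MB. All tumors were above all other libraries, and SHH MB overlapped with P7 cerebella (log2 fold change of 1.87 (SE 0.39, adjusted p = 0.0186) for tumors against P7 cerebella). Nolc1 (chr19:46064234-46073983, plus strand), a chaperone of snoRNPs in the nucleolus and Cajal bodies, was at 69.0, 168, 189 and 315 CPM in the tumors, 47.3, 49.1 and 43.4 CPM in the P7 cerebella and 98.7, 95.4 and 106 CPM in SHH MB. The 3 groups were ordered P7 cerebella, SHH MB and tumors apart from tumor 1, which lay below SHH MB, and the log2 fold change of 1.99 (SE 0.41, adjusted p = 0.0182) against P7 cerebella was among the 3 largest of all members. Calls in this role numbered between 0 (without any P7 cerebellum) and 5 (without tumor 1) when 1 library was left out.

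The MPP10 complex joins the U3 snoRNA to its sites on the precursor. Imp3 and Imp4, which promote this pairing, rose, while the scaffold gene Mphosph10 did not pass the test. Imp3 (chr9:56844722-56850236, plus strand) was at 17.7, 39.4, 28.2 and 35.2 CPM in the tumors, 12.1, 9.96 and 14.7 CPM in the P7 cerebella and 10.8, 15.3 and 13.5 CPM in SHH MB (log2 fold change of 1.30 (SE 0.32, adjusted p = 0.0323) against P7 cerebella). Imp4 (chr1:34478568-34488437, plus strand) was at 27.3, 49.6, 58.2 and 75.0 CPM in the tumors, 19.5, 18.3 and 16.0 CPM in the P7 cerebella and 18.5, 26.5 and 18.7 CPM in SHH MB (log2 fold change of 1.55 (SE 0.33, adjusted p = 0.0203)). For both genes each tumor exceeded every P7 and SHH MB library. Mphosph10 reached 16.7, 35.5, 34.4 and 52.7 CPM in the tumors, 13.0, 13.2 and 21.6 CPM in the P7 cerebella and 30.5, 27.5 and 30.7 CPM in SHH MB. Tumor 1 lay within the P7 range for this gene and below SHH MB, and its log2 fold change of 1.14 (SE 0.36, adjusted p = 0.0764) did not pass. Without tumor 1 all 3 genes were called, and without any P7 cerebellum 0.

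Of the other 14 processome factors 10 rose, with a median log2 fold change of 1.17. Utp20 (chr10:88582469-88662699, minus strand), a very large HEAT-repeat protein of the processome, changed most of all members, from 43.3, 42.1 and 37.8 CPM in the P7 cerebella to 79.4, 221, 191 and 287 CPM in the tumors, with 75.4, 78.2 and 82.1 CPM in SHH MB. No tumor overlapped with P7 cerebella, only tumor 1 came within the SHH MB range, and the log2 fold change of 2.25 (SE 0.38, adjusted p = 0.00837) corresponded to 4.74-fold. Nol6 rose by 1.15, the GTPase gene Bms1 by 1.35 and the gene for its partner Rcl1 by 1.39. Utp14a, an activator of a processome helicase, rose by 1.30 with overlap between the groups, as did Wdr46 (1.81). Nol10, Nop14, Noc4l and Krr1 rose by 1.19, 1.49, 1.16 and 1.12 on the log2 scale.

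Processome factors with the smallest differences were Utp11, Dcaf13, Rrp7a and Rrp36, and none of them passed. Utp11 (chr4:124571174-124587393, minus strand) was at 21.6, 25.0, 33.0 and 37.4 CPM in the tumors, 17.5, 17.5 and 18.7 CPM in the P7 cerebella and 21.3, 24.3 and 20.8 CPM in SHH MB (log2 fold change of 0.71 (SE 0.26, adjusted p = 0.113)). For Dcaf13 (chr15:38976260-39010272, plus strand) the values were 19.9, 24.4, 20.7 and 31.3 CPM in the tumors, 13.0, 14.1 and 15.8 CPM in the P7 cerebella and 15.1, 23.4 and 20.8 CPM in SHH MB (log2 fold change of 0.76 (SE 0.27, adjusted p = 0.110)). Both genes were higher in each tumor than in each P7 cerebellum, by small margins, and overlapped with SHH MB. Rrp7a and Rrp36 had log2 fold changes of 0.76 (adjusted p = 0.117) and 0.84 (adjusted p = 0.150). Without tumor 1 all 14 of the other processome factors were called, and without any P7 cerebellum 0.

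Of 3 enzymes that modify the small subunit RNA 1 rose, and differences between the 3 were not tested. Nat10 (chr2:103544162-103591697, minus strand), which acetylates cytidines, was at 70.3, 106, 111 and 156 CPM in the tumors, 36.6, 30.0 and 34.1 CPM in the P7 cerebella and 55.1, 52.4 and 57.0 CPM in SHH MB. All tumors were above all SHH MB libraries, which were above all P7 cerebella, and the log2 fold change of 1.72 (SE 0.29, adjusted p = 0.00810) had the lowest adjusted p of all members. Dimt1 (chr13:107083602-107098361, plus strand), a dimethyltransferase of adenosines near the end of the RNA, was at 9.83, 8.92, 10.7 and 19.1 CPM in the tumors, 8.11, 7.47 and 5.66 CPM in the P7 cerebella and 8.18, 8.18 and 13.7 CPM in SHH MB. Tumors lay just above the P7 range, only tumor 4 stood clear, and the log2 fold change of 0.78 (SE 0.36, adjusted p = 0.192) did not pass. Emg1, which methylates a pseudouridine, had a log2 fold change of 1.04 (adjusted p = 0.0514). Between 0 (without any P7 cerebellum) and 2 (without tumor 1) of the 3 enzymes were called with 1 library left out.

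Among 6 factors of late 40S maturation 4 rose, with a median log2 fold change of 1.41. Nob1 (chr8:108139118-108151692, minus strand), the endonuclease of the last cleavage, was at 29.7, 32.5, 44.3 and 61.0 CPM in the tumors, 15.4, 17.5 and 19.5 CPM in the P7 cerebella and 19.9, 15.7 and 23.1 CPM in SHH MB, which set all tumors above all other libraries (log2 fold change of 1.26 (SE 0.30, adjusted p = 0.0305)). Rrp12 (chr19:41847867-41884649, minus strand), needed for export of pre-40S particles, was at 48.9, 76.9, 84.8 and 111 CPM in the tumors, 29.8, 25.9 and 20.8 CPM in the P7 cerebella and 39.3, 31.2 and 29.7 CPM in SHH MB. It showed the same separation, with a log2 fold change of 1.66 (SE 0.30, adjusted p = 0.0116). Pno1, the partner of Nob1, rose by 1.49 and Tsr1, a GTPase-like factor, by 1.70. Bysl (chr17:47910256-47922469, minus strand) was at 15.7, 33.6, 37.5 and 50.7 CPM in the tumors, 18.9, 21.3 and 22.9 CPM in the P7 cerebella and 23.4, 24.5 and 18.6 CPM in SHH MB. Its tumor 1 value was the lowest of all 10 libraries, and the log2 fold change of 0.71 (SE 0.34, adjusted p = 0.208) did not pass. Ltv1 (chr10:13053880-13068939, minus strand) gave 11.8, 40.5, 48.4 and 53.7 CPM in the tumors, 11.0, 15.3 and 19.9 CPM in the P7 cerebella and 18.8, 17.1 and 18.2 CPM in SHH MB. Tumor 1 was within the P7 range and tumors 2 to 4 well above it (log2 fold change of 1.33 (SE 0.43, adjusted p = 0.0799)). Without tumor 1 all 6 genes were called, and without any P7 cerebellum 0.

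**Figure D3:**
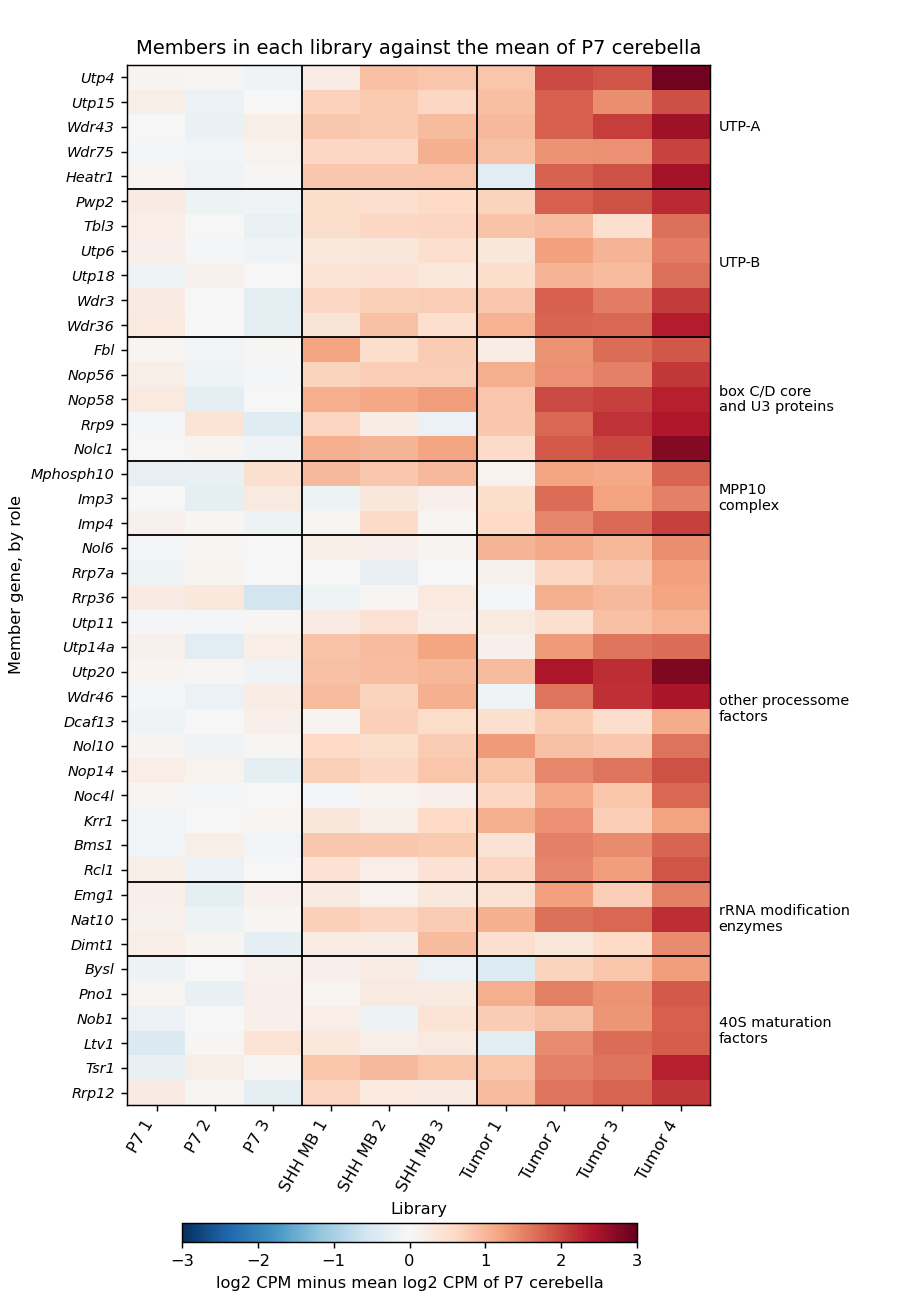
Colors give the log2 CPM of each of the 42 members, by role, in 10 libraries, minus the mean of the 3 P7 cerebella. Tumors 2 to 4 are high for nearly all members (median 1.44, 1.41 and 1.86), tumor 1 is intermediate after TMM scaling (0.66), though below the P7 cerebella on total counts for 22 members, and SHH MB is weaker.

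Levels of the members also varied among the tumors. Tumor 4 had the highest CPM of the tumors for 40 members and tumor 2 for the other 2, while tumor 1 had the lowest for 37, tumor 3 for 4 and tumor 2 for 1. Of all genes tested, 32.6%, 12.2%, 37.7% and 17.5% were highest in tumors 1 to 4, and 28.5%, 31.8%, 30.9% and 8.81% lowest. Tumor 1 lay above all P7 cerebella for 35 members, and tumors 2 to 4 did so for all 42, against 38.3%, 37.1%, 36.1% and 35.8% of all genes in tumors 1 to 4, but on total counts these numbers were 7, 39, 42 and 42, against 16.7%, 21.1%, 43.8% and 24.3%, and tumor 1 lay below all P7 cerebella for 22 members. Against all SHH MB libraries, tumor 1 was higher for 22 members, tumor 2 for 41, tumor 3 for 39 and tumor 4 for 42, against 37.6%, 35.6%, 39.1% and 36.4% of all genes. On total counts they were 2, 33, 41 and 42, against 19.9%, 22.3%, 53.1% and 26.0%, and tumor 1 was below all SHH MB libraries for 36. The median log2 ratio of the members to the mean of P7 cerebella was 0.66, 1.44, 1.41 and 1.86 in tumors 1 to 4, against -0.18, -0.26, 0.05 and -0.16 over all genes. Ratios of tumor 4 to tumor 1 were largest for Heatr1 (7.07-fold) and Wdr46 (5.93-fold) and smallest for Krr1 (1.10-fold). The members took 0.102%, 0.234%, 0.372% and 0.369% of all counts in tumors 1 to 4, between 0.112% and 0.120% in P7 cerebella and between 0.163% and 0.166% in SHH MB. On total counts alone, tumor 3 was highest for 23 members and tumor 4 for 19, so which of the 2 was higher depended on the scaling, while tumor 1 stayed lowest for 41. The typical spread of a member, as the median SD of log2 CPM, was 0.51 in tumors, 0.17 in P7 cerebella and 0.11 in SHH MB, against 0.81, 0.26 and 0.26 over all genes.

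MYC/SMARCA4 tumors were next compared with SHH MB, a medulloblastoma model without the Myc virus. The 4 tumors are shared with the comparison against P7 cerebella, so these results are not independent. All 42 members were again fitted higher in the MYC/SMARCA4 tumors, by a median log2 fold change of 0.87 (0.01 over all genes), with a range of 0.24 to 1.64. With a replicate block, and also without tumor 4, 40 were fitted higher, while Dimt1 and Mphosph10 turned lower. The test called 6 members higher, against 2.43% of all genes, and 0 lower, against 2.26%. Unadjusted p was at most 0.05 for 30 members, all higher, against 12.7% of all genes higher. DESeq2 called 19 higher and limma 1, against 7.87% and 0.692% of all genes, and both called 0 lower, against 4.09% and 1.21%. In 21 members each tumor lay above each SHH MB library, against 7.83% of all genes, but on total counts this held for only 2 (Nol6 and Pno1), or 4.76%, against 5.03% of all genes. At the stricter limit 0 of 42 were called by edgeR, against 0.294% of all genes, with 1 by DESeq2 and 0 by limma, against 2.88% and 0.117%. A fit of these 2 groups alone called 0 members by edgeR, against 0.337% of all genes, with 23 higher at an unadjusted p of at most 0.05, against 9.42%. The median of all genes moved by -0.23 on total counts, which gave 0 calls of members and changed the split of all calls from 727 higher and 676 lower to 437 higher and 908 lower. The members' median was then 0.87 above that of all genes, where it was 0.86 above in the main setting.

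Genes that rose against SHH MB were Rrp9, Imp3, Imp4, Nol6, Pno1 and Rrp12, so the UTP-A, UTP-B and modification roles had 0 calls (with 4 of 5, 5 of 6 and 2 of 3 genes at an unadjusted p of at most 0.05). In these roles Wdr36 (adjusted p = 0.0501, edgeR), Pwp2 (0.0549) and Nat10 (0.0587) lay just past the limit. Differences between roles were not tested. Rrp9 of the U3 snoRNP had the largest difference, with 20.4, 39.1, 52.7 and 62.4 CPM in tumors 1 to 4 against 18.2, 13.6 and 10.3 CPM in SHH MB and a log2 fold change of 1.64 (SE 0.39, adjusted p = 0.0308). Imp3 and Imp4 of the MPP10 complex rose by 1.19 (SE 0.31, adjusted p = 0.0498) and 1.31 (SE 0.33, adjusted p = 0.0401). Rrp12, the export factor, rose by 1.27 (SE 0.30, adjusted p = 0.0313). Values by library of Nol6 and Pno1 are given after these were seen to be called. Nol6, a processome component, was at 127, 136, 124 and 162 CPM in the tumors, 70.3, 69.1 and 65.9 CPM in SHH MB and 59.7, 64.2 and 62.4 CPM in the P7 cerebella, with little spread in each group and a log2 fold change of 1.00 (SE 0.23, adjusted p = 0.0259). Pno1, the partner of Nob1, was at 31.4, 42.7, 37.9 and 53.5 CPM in the tumors, 15.4, 17.8 and 17.9 CPM in SHH MB and 15.4, 12.6 and 16.4 CPM in the P7 cerebella (log2 fold change of 1.28 (SE 0.26, adjusted p = 0.0167)). In all 6 genes each tumor was above each SHH MB library, on total counts only in Nol6 and Pno1, and SHH MB overlapped with or lay close to P7 cerebella.

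Members with the smallest log2 fold changes against SHH MB were Mphosph10 (0.24, adjusted p = 0.742), Dcaf13 (0.29, adjusted p = 0.596) and Dimt1 (0.29, adjusted p = 0.695). By role, median log2 fold changes against SHH MB were 0.96 for UTP-A, 0.83 for UTP-B, 0.87 for box C/D and U3 proteins, 1.19 for the MPP10 complex, 0.79 for other processome factors, 0.82 for modification enzymes and 1.10 for 40S maturation. Here the count of calls again rested on single libraries. It was 32 without tumor 1, 1 without tumor 2, 13 without tumor 3 and 1 without tumor 4, against 5.0%, 1.29%, 9.57% and 2.10% of all genes. It was 1 without any 1 of the P7 cerebella, against 1.14%, 1.08% and 1.17% of all genes, and 0 without any 1 of the SHH MB libraries, against 0.174%, 0.188% and 0.166% (lowest adjusted p = 0.0954, 0.108 and 0.116 without SHH MB 1, 2 and 3). Each of the 6 calls is thus lost when any 1 of the SHH MB libraries is left out, and all 6 are among the 32 genes called without tumor 1. The median log2 fold change of the 42 members was 0.86, 0.86 and 0.90 without SHH MB 1, 2 and 3, and 0.87 in the main setting.

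SHH MB were compared with P7 cerebella of the same age, to see the members in a medulloblastoma model without the virus. Of the 42 members 41 were fitted higher in SHH MB, but no difference passed the test in the fit of all 10 libraries. The median log2 fold change was 0.57 (-0.09 over all genes) and the range -0.09 (Rrp7a) to 1.15 (Nop58). The test called 0 of 42 higher, against 0.177% of all genes, and 0 lower, against 0.0467%, with adjusted p of at least 0.338. At an unadjusted p of at most 0.05 there were 15 members, all higher, against 5.16% of all genes higher, and DESeq2 and limma both called 0, against 1.72% and 0.128% of all genes higher. Nonetheless, each SHH MB library lay above each P7 cerebellum in 29 members, against 17.8% of all genes, and on total counts in 24, against 14.5%. Role medians were 0.79 for UTP-A, 0.57 for UTP-B, 0.86 for box C/D and U3 proteins, 0.25 for the MPP10 complex, 0.43 for other processome factors, 0.49 for modification enzymes and 0.22 for 40S maturation. On total counts the median of all genes moved by -0.11 and the split of calls went from 53 higher and 14 lower to 43 higher and 40 lower, with 37 members still fitted higher.

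Nop58 showed the largest difference between SHH MB and P7 cerebella, with 73.9, 77.5 and 82.7 CPM against 42.6, 27.9 and 34.7 CPM (log2 fold change of 1.15 (SE 0.35, adjusted p = 0.338)). Nolc1 had a log2 fold change of 1.10 (SE 0.42, adjusted p = 0.457), Utp14a a log2 fold change of 0.99 (adjusted p = 0.439) and Utp20 one of 0.94 (adjusted p = 0.491). In Nolc1, Nop58 and Utp20 the lowest SHH MB library was well above the highest P7 cerebellum. By contrast Imp3 (0.11), Bysl (0.08) and Rrp36 (0.03) were near 0. The 3 comparisons share one estimate of spread, to which the 4 uneven tumors contribute. When SHH MB and P7 cerebella were fitted alone, 23 of 42 members were called higher, against 13.4% of all genes, and without tumor 1 in the common fit 8 members, against 2.86%. Leaving out any other library gave 0, against at most 0.665% of all genes. Cell type markers moved in the fit of SHH MB and P7 cerebella alone as well, where 10 of 10 Purkinje cell, 10 of 12 granule neuron, 9 of 10 oligodendrocyte and 7 of 10 astrocyte markers were lower, against 10.3% of all genes, and 6 of 10 precursor markers higher. Their part in the values of the members was not tested. The comparison shares its samples with the other 2, and the differences between the 3 sets of calls were not tested.

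**Figure D4:**
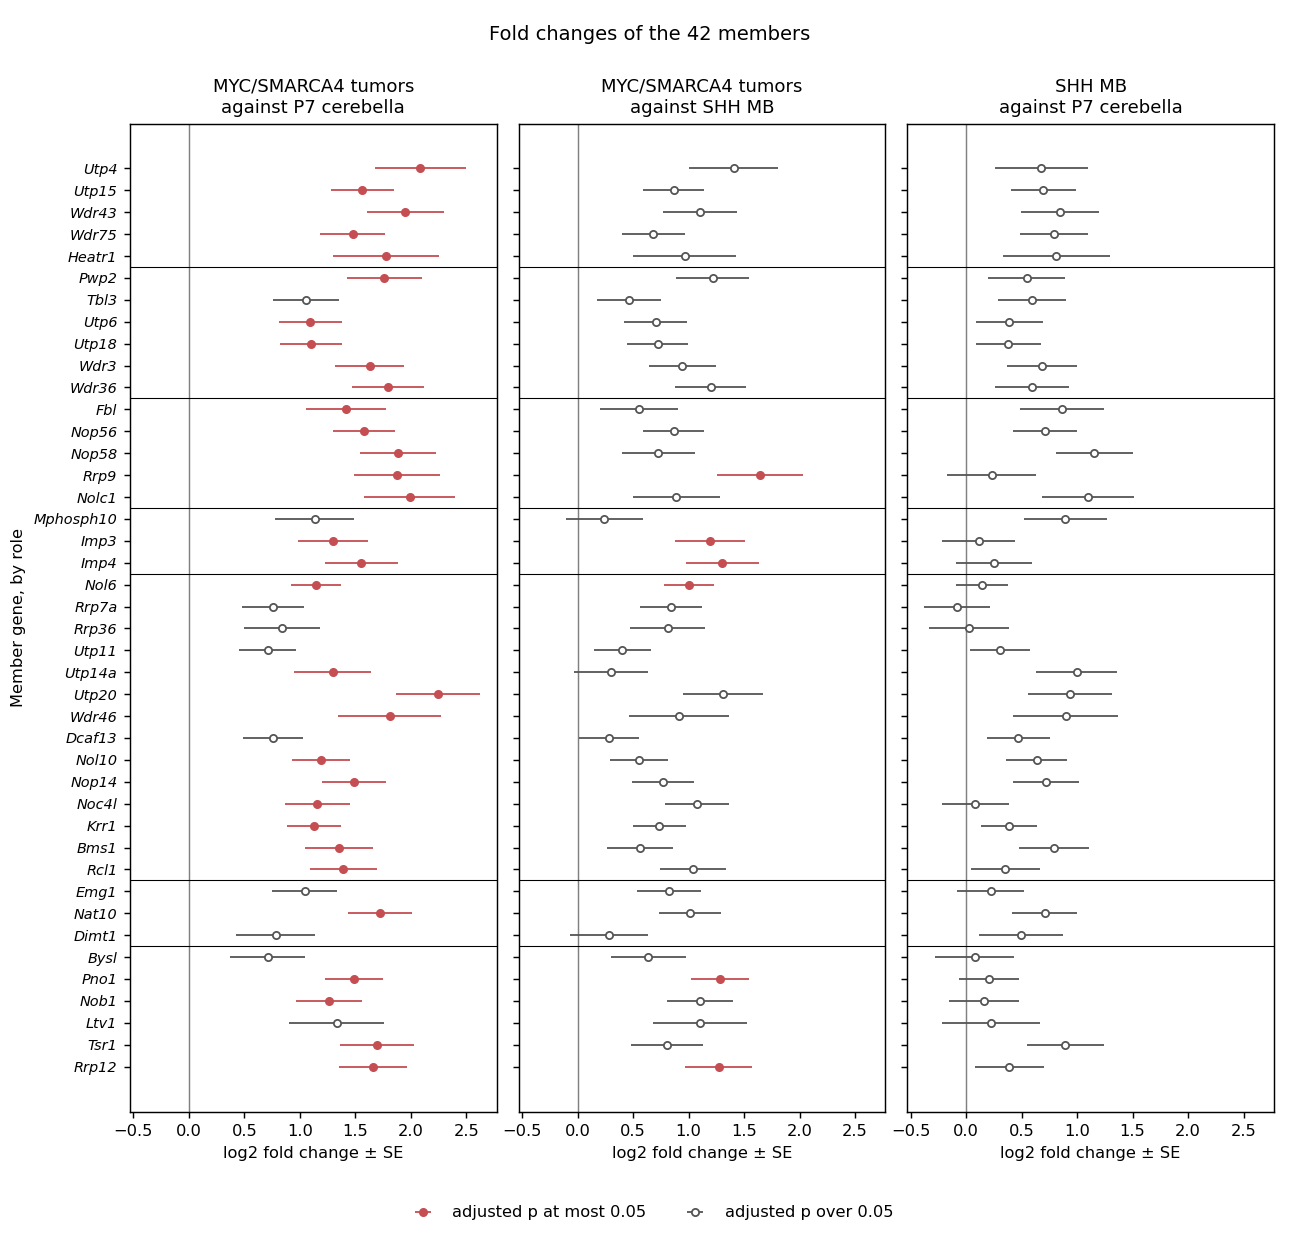
Points give the log2 fold change of each of the 42 members with its standard error in the 3 comparisons, by role, and filled points are those with an adjusted p of at most 0.05 (edgeR). There are 32 filled points for tumors against P7 cerebella, 6 for tumors against SHH MB and 0 for SHH MB against P7 cerebella.

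Levels were compared between genes as CPM per kb of merged exons, averaged over a group. The median member was at 9.72 CPM per kb in MYC/SMARCA4 tumors, 5.06 in SHH MB and 3.79 in P7 cerebella. Nolc1 was the most abundant member in each group (37.8 CPM per kb in tumors, 20.4 in SHH MB and 9.53 in P7 cerebella), and in tumors Wdr43 was next with 36.4 CPM per kb. In P7 cerebella Nolc1 stood level with Utp6 (9.49), Wdr43 (9.41) and Nol6 (9.41). The least abundant were Dcaf13 (2.13 CPM per kb in tumors and 1.75 in SHH MB) and Dimt1 (1.25 in P7 cerebella). The order depends on the length used. Per kb of the canonical transcript, an alternative chosen after seeing the data, Wdr43 led in tumors, Nop56 in SHH MB and Emg1 in P7 cerebella. Dimt1 was then lowest in all 3 groups, and Dcaf13 moved from position 42 to 31 of the members in tumors.

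**Figure D5:**
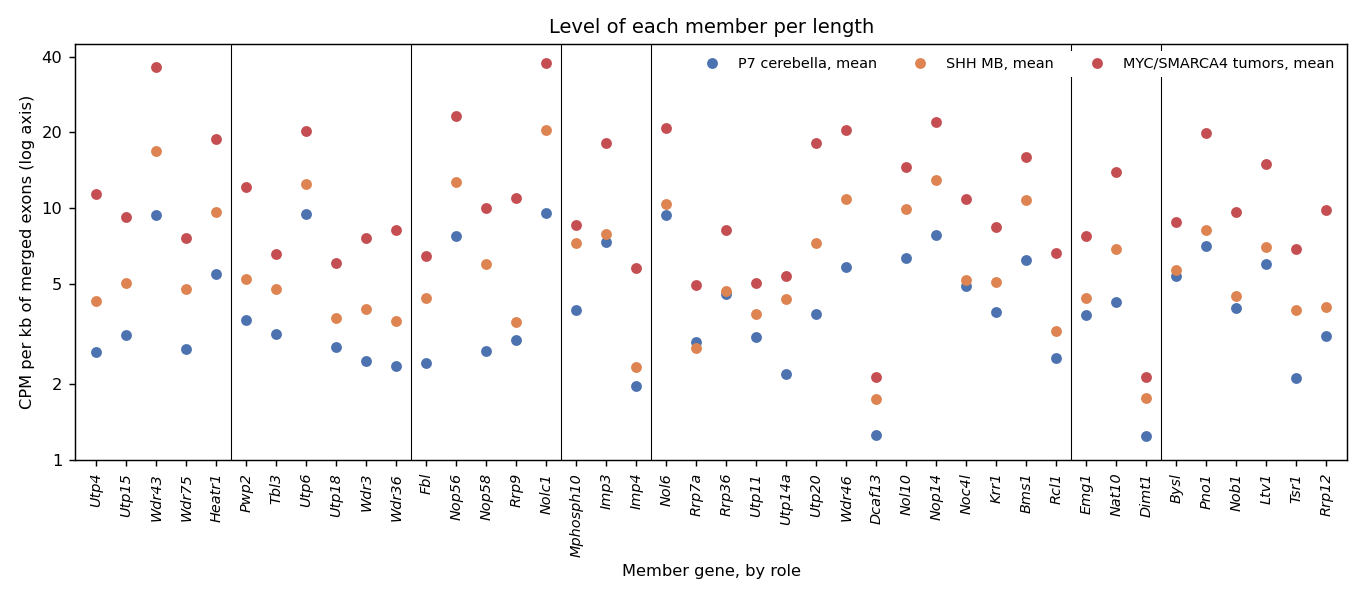
Group means in CPM per kb of merged exons, on a log axis, for each of the 42 members in P7 cerebella, SHH MB and MYC/SMARCA4 tumors. Tumor means lie above the others for each member, from Dcaf13 (2.13) to Nolc1 (37.8).

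Some features of the members were not used in choosing them. They lie on 18 chromosomes, with at most 5 on any 1. In the tumors against P7 cerebella, members with CACGTG in the whole promoter window, from 250 bases before to 50 after the start, had a median log2 fold change of 1.62 (8 of 10 called), members without it 1.37 (19 of 24 called) and the 8 without an entry 1.12 (5 called). Against SHH MB these medians were 1.10, 0.84 and 0.63, and for SHH MB against P7 cerebella 0.53, 0.66 and 0.43. The split depends on the window. With the motif before the start, log2 fold changes against P7 cerebella were 1.81 (Wdr46), 1.55 (Imp4), 1.10 (Utp18) and 0.76 (Rrp7a). These lie on both sides of the 1.37 of members without the motif. Ranges overlapped widely, and the difference was not tested. Of the members with the motif shown above, Utp20, Utp4 and Wdr43 were among the 4 with the largest rise against P7 cerebella, while Rrp7a and Ltv1 did not pass.

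Some of the members host small nucleolar RNAs in their introns. The annotation places 14 in Wdr43, Nop56, Nop58 and Tsr1, of which 9 are in the files and 4 had enough counts to be tested. Snord53, in Wdr43, had 20, 20, 11 and 43 counts in tumors 1 to 4, 4, 7 and 4 in the P7 cerebella and 15, 19 and 9 in SHH MB. Each tumor was above each P7 cerebellum, and SHH MB overlapped with the tumors (log2 fold change of 2.68 against P7 cerebella, SE 0.59, adjusted p = 0.0234). Snord110, in Nop56, had 12, 10, 20 and 19 counts in the tumors, 3, 4 and 0 in the P7 cerebella and 1, 11 and 5 in SHH MB (log2 fold change of 3.16, SE 0.83, adjusted p = 0.0424). These counts are low and both calls were lost without any 1 of the P7 cerebella (adjusted p = 0.133, 0.124 and 0.127 for Snord53 and 0.173, 0.162 and 0.191 for Snord110) and without tumor 4 (0.068 and 0.0958). Both calls were also lost in a fit of the 2 groups alone (0.10 and 0.122), with a replicate block (0.117 and 0.150) and on total counts (0.0535 and 0.103). The call of Snord110 was lost as well without tumor 2 (0.0533) and without SHH MB 1, 2 or 3 (0.0543, 0.0674 and 0.0719). Snord57 in Nop56 (log2 fold change 2.75, adjusted p = 0.0617) and Snord70 in Nop58 (2.88, adjusted p = 0.0677) did not pass. Snord91a, in Tsr1, was at 0 in all 10 libraries. The libraries are of total RNA, and reads of a mature snoRNA were not told apart from reads of the unspliced host transcript.

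For 12 members some counts could belong to a neighbour. Exons of Utp4, Tbl3, Wdr3, Wdr36, Nop56, Rrp7a, Nop14, Krr1, Emg1, Dimt1, Bysl and Tsr1 overlap with those of a gene on the opposite strand, and the strand setting of the counting is not given in the sources used here. The overlap is longest for Dimt1 with Kif2a (3199 bases), Tsr1 with Sgsm2 and Srr (up to 1354 bases) and Tbl3 with Noxo1 (1348 bases), and is 9 bases for Nop56. Near copies in the files are Fbl-ps2 and Fbll1 for Fbl and Wdr46-ps for Wdr46. Values of these members are uncertain to that extent.

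Other genes of ribosome production were counted in the same way. Among 28 other small subunit factors 12 rose against P7 cerebella (median log2 fold change 0.93). Pdcd11, a processome protein with many S1 domains, and Snu13, a core protein of box C/D particles, had the largest values (1.55, adjusted p = 0.0220 and 1.49, adjusted p = 0.0907), and Utp23 the smallest (-0.07). Against SHH MB 2 rose, Tsr2 (1.30, adjusted p = 0.0115) and Trmt112 (1.18, adjusted p = 0.0498), named after their values were seen. Box C/D snoRNP assembly factors, which load the core proteins, gave 1 call of 7 against P7 cerebella (Nufip1, 1.08, adjusted p = 0.0286, named after its value was seen), with Ruvbl2 (1.43, adjusted p = 0.0891) and Ruvbl1 (1.25, adjusted p = 0.0642) largest and Pih1d1 (0.11) smallest. Against SHH MB 0 of these 7 were called by edgeR, with 3 at an unadjusted p of at most 0.05, 0 by DESeq2 and 0 by limma. With 1 library left out, counts against P7 cerebella ranged from 0 (any P7 cerebellum) to 19 of 28 and 3 of 7 (both without tumor 1).

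Large subunit assembly factors were higher in the tumors as well. Against P7 cerebella 31 of 47 rose (median 1.44), led by Gnl3 (nucleostemin, 2.67, adjusted p = 0.00318) and Nop16 (2.16, adjusted p = 0.0116), with Ddx55 the smallest (0.49). They summed to 2680.4, 3797, 3714 and 5229.6 CPM in the tumors, 1499.6, 1482 and 1387 CPM in the P7 cerebella and 2082, 2034 and 2291 CPM in SHH MB, so that each tumor was above each other library after TMM scaling. On total counts tumor 1 (1666 per 1000000) lay within the P7 range (1652, 1682 and 1653) and below SHH MB (2276, 2194 and 2313). Against SHH MB 5 rose (median 0.83), namely Ebna1bp2, Bop1, Gnl3, Ddx27 and Wdr74, named after their values were seen. The calls against P7 cerebella numbered between 1 and 40 with 1 library left out, and those against SHH MB between 0 (without an SHH MB library) and 25 (without tumor 1). Of the RNA polymerase I machinery, which makes the precursor, 7 of 18 rose against P7 cerebella (median 0.72), led by Taf1d (2.35, adjusted p = 0.00614) and Polr1b (2.22, adjusted p = 0.0207), while Polr2l was at -0.16. Against SHH MB only Polr1c rose (1.17, adjusted p = 0.0325), named after its value was seen. Its counts ran from 0 to 10 against P7 cerebella and from 0 to 8 against SHH MB, with the most without tumor 1. Fits of only the 2 groups compared called 1 large subunit factor against P7 cerebella and otherwise 0 of the genes in these 2 lists and the preceding 2 by edgeR, with 39, 7, 16 and 3 at an unadjusted p of at most 0.05 against P7 cerebella (large subunit, polymerase I, other small subunit and box C/D assembly) and 21, 5, 6 and 1 against SHH MB.

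Ribosomal proteins of the small subunit are the cargo of these factors. Their 33 genes summed to 2139, 8087, 7804 and 7037 CPM in tumors 1 to 4, 2901, 2543 and 2766 CPM in the P7 cerebella and 2931, 2982 and 3402 CPM in SHH MB. Tumor 1 was below all other libraries and tumors 2 to 4 far above them, led by Rack1. Of 32 tested, 5 rose against P7 cerebella (Rps3, Rps14, Rps15a, Rps21 and Rps25, named after their values were seen, median of the list 1.12) and 4 against SHH MB (Rps13, Rps14, Rps15a and Rps21, median 1.02). Rps12 (1.58, adjusted p = 0.0656) and Rps3 (1.51, adjusted p = 0.0487) had the largest values against P7 cerebella and Fau (0.61) the smallest. Without tumor 1 all 32 were called in both comparisons, and without any P7 cerebellum 0 against P7 cerebella. Fits of the 2 groups alone called 0 by edgeR (15 and 16 unadjusted). Proliferation genes gave 0 calls of 24 by edgeR against P7 cerebella (2 at an unadjusted p of at most 0.05, 0 by DESeq2 and 0 by limma, median 0.90) and 0 against SHH MB (0 unadjusted, 0 by DESeq2 and 0 by limma, median -0.28). Mcm6 (1.49, adjusted p = 0.167) and Mcm2 (1.34, adjusted p = 0.171), of the replicative helicase, were largest and Pcna (0.22) smallest, and without tumor 1 there were 19 calls against P7 cerebella. SHH MB against P7 cerebella gave 0 calls by edgeR in each of these 6 lists. At an unadjusted p of at most 0.05 there were 8 other small subunit factors, 0 box C/D assembly factors, 13 large subunit factors, 4 polymerase I genes (3 higher and 1 lower), 0 ribosomal proteins and 4 proliferation genes. DESeq2, which called 1.72% of all genes higher, called 1, 0, 1, 1, 0 and 0 of them and limma 0. Without tumor 1 edgeR called 18 of 24 proliferation genes, 7 large subunit factors, 4 other small subunit factors, 3 polymerase I genes and 0 of the other 2 lists. When SHH MB and P7 cerebella were fitted alone, it called 24, 34, 15 and 7 of these higher, with 2 polymerase I genes lower, as well as 2 box C/D assembly factors and 8 ribosomal proteins. In all 24 proliferation genes each SHH MB library lay above each P7 cerebellum, against 17.8% of all genes.

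Calls among the cell type markers complete the account of what else differed. Against P7 cerebella 4 of 12 granule neuron markers rose (Gabra6, Cbln3, Grin2c and Slc17a7, named after their values were seen), and 7 of 12 rose against SHH MB. Of 10 Purkinje cell markers 0 were called against P7 cerebella by edgeR (4 at an unadjusted p of at most 0.05, 2 by DESeq2 and 0 by limma) and 4 rose against SHH MB (Pvalb, Itpr1, Ppp1r17 and Aldoc). Oligodendrocyte markers gave 0 calls of 10 in both comparisons (0 and 5 unadjusted, 0 and 3 by DESeq2, 0 and 0 by limma), as did microglia markers (4 and 3 unadjusted, 0 and 2 by DESeq2, 0 and 0 by limma) and fibroblast markers (1 and 4 unadjusted, 0 and 1 by DESeq2, 0 and 0 by limma). The 4 fibroblast markers against SHH MB were 3 higher and 1 lower. Of 10 astrocyte and Bergmann glia markers 4 fell against P7 cerebella (Aqp4, Aldh1l1, Gdf10 and Fabp7), and against SHH MB 2 fell (Aldh1l1 and Fabp7) while Gjb6 rose. Of 7 choroid plexus markers Ttr and Aqp1 fell in both comparisons, of 7 erythrocyte markers Hba-a2 did, and of 10 endothelial markers Kdr fell against SHH MB, with 0 called against P7 cerebella (2 higher and 2 lower unadjusted, 2 by DESeq2 and 0 by limma). Precursor markers Barhl1 and Mycn fell against P7 cerebella, and Ptch1 with them against SHH MB, 2 and 3 of 10. Between SHH MB and P7 cerebella Neurod2 fell and Barhl1 rose. These genes too were named after their values were seen. Of all genes 3.99% rose and 2.27% fell against P7 cerebella, and 2.43% and 2.26% against SHH MB. Calls of granule neuron markers ranged from 0 (without any 1 of the P7 cerebella) to 10 (without tumor 3) against P7 cerebella and from 2 (without SHH MB 3) to 12 (without tumor 3) against SHH MB. Rises of Purkinje cell markers against SHH MB numbered 0 without any 1 of the P7 or SHH MB libraries, 1 without tumor 2 and 8 without tumor 3.

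Counts of the other markers also rested on single libraries. Against SHH MB up to 6 oligodendrocyte markers and 4 microglia markers were called higher, both without tumor 3, and microglia markers reached 4 against P7 cerebella as well. At most 2 endothelial markers in either comparison, 1 fibroblast marker against SHH MB, 1 astrocyte marker in either comparison and 1 choroid plexus marker against P7 cerebella were called higher. Falls against P7 cerebella numbered 2 to 6 for astrocyte markers and 1 to 5 for choroid plexus markers, with the most without tumor 3, and 0 to 4 for endothelial markers, with the most without tumor 1. Up to 2 Purkinje cell and 2 oligodendrocyte markers fell against P7 cerebella without tumor 1. Falls against SHH MB numbered 1 to 3 for astrocyte markers, 1 to 5 for choroid plexus markers, 0 to 4 for endothelial markers and 2 (without SHH MB 3) to 8 (without tumor 1) for precursor markers. Erythrocyte markers gave 1 or 2 falls in both comparisons. Between SHH MB and P7 cerebella 0 to 5 precursor markers rose (5 without tumor 1), and 0 to 4 granule neuron and 0 to 2 astrocyte markers fell (4 and 2 without tumor 3), with 0 to 2 Purkinje cell and 0 to 1 oligodendrocyte markers (2 and 1 without tumor 1). These ranges hold for leaving out each of the 10 libraries in turn. Without tumor 3 most calls over all genes against P7 cerebella were falls, with only 34.0% of the calls higher. No share of all genes is given beside these counts, so they are not read as a result about the markers. In the fit of SHH MB and P7 cerebella alone the falls named above for Purkinje cell, granule neuron, oligodendrocyte and astrocyte markers were joined by 2 fibroblast, 1 endothelial and 1 precursor marker, while 2 choroid plexus, 1 astrocyte, 1 fibroblast and 1 erythrocyte marker rose beside the 6 precursor markers. Fits of only the 2 groups compared called 3 granule neuron markers higher against SHH MB and 0 markers of any list higher against P7 cerebella by edgeR (8 granule neuron and 3 Purkinje cell markers at an unadjusted p of at most 0.05 in either direction). Falls in them were 1 astrocyte, 1 erythrocyte and 1 choroid plexus marker in both comparisons, and 2 and 3 precursor markers against P7 cerebella and SHH MB.

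Summed levels of the other markers were as follows. Astrocyte and Bergmann glia markers came to 758, 2854, 534 and 2131 CPM in tumors 1 to 4, 2824, 2837 and 2736 CPM in the P7 cerebella and 2194, 2416 and 2526 CPM in SHH MB, led by Slc1a2 in tumors 2 to 4 and in SHH MB, Slc4a4 in tumor 1 and Aqp4 in the cerebella. Granule cell precursor markers came to 2079.7, 1893, 1043 and 1298 CPM in the tumors, 2319, 2358 and 2162 CPM in the P7 cerebella and 3402, 3624 and 4143 CPM in SHH MB, led by Zic1 or Ptch1. Tumors 1 and 3 were low for glia and all tumors were below the other groups for precursors. Choroid plexus markers were at 85.7, 161, 138 and 62.7 CPM in the tumors, 605, 1193 and 706 CPM in the P7 cerebella and 994, 1339.9 and 347 CPM in SHH MB, where Ttr led outside the tumors. Microglia, endothelial, fibroblast and erythrocyte markers reached at most 221, 414, 3474 and 364 CPM, in tumor 1, tumor 1, tumor 2 and SHH MB 2. On total counts the highest were tumor 4 for microglia and SHH MB 1 for endothelial markers. The largest share of the fibroblast sum was Igf2 in tumor 2. No marker of any list was at 0 in a library, and the part of these cells in the values of the assembly factors was not tested.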

How the data were processed

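Counts per gene and library were deposited by the authors as whole numbers without normalization, and values on a log2 scale (VST) were deposited by the authors as a table of 46123 genes. According to the submitters' processing notes and the study's methods, reads were checked with FastQC 0.73, trimmed with Trimmomatic 0.38.1, aligned to GRCm39 with STAR 2.7.8a, counted with featureCounts 2.0.1 and transformed with DESeq2 2.11.40.7. The strand setting is not given in the sources used here.

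The count files of all 10 libraries were joined by symbol and fitted together in edgeR 4.0.16 (R 4.3.3) with a mean per group, TMM factors, filterByExpr and the quasi-likelihood F test. This gave 5.87 prior degrees of freedom and a common dispersion of 0.178. P-values were adjusted by the Benjamini-Hochberg method over 29952 genes, and a gene was called at an adjusted p of at most 0.05. The stricter limit was 1.5 for the log2 fold change and 0.01 for the adjusted p. DESeq2 1.42.0 on the counts, limma 3.58.1 on the deposited log2 values, other scalings, no filter, fits of 2 groups, a replicate block and each library left out were alternatives, and leaving out a library without a new filter on low counts was added after seeing the data. Log2 CPM used a prior count of 2, and 3 counts set the floor, for counting error only.

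The members and lists were chosen with earlier results of these data known. Values by library are given for Myc, Smarca4 and Mycn, for 19 members chosen by role, and for the 3 members with the largest and the 3 with the smallest log2 fold change against P7 cerebella. In other lists the 2 largest and the smallest are named. Promoter sequences are from RefSeq (GRCm38.p6), matched by symbol, and gene positions and exons from GENCODE. Symbols of 3 polymerase I subunits in the list (Polr1f, Polr1g and Polr1h) were not found in the files, and 1 of 33 ribosomal protein genes had too few counts to be tested.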

Additional observations from a re-analysis of the deposited data

Results flagged for a closer look

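In 64 series of values over the 4 tumors (members, target genes and list means), the lowest or highest tumor was checked for lying far from the other 3, and 4 series passed the limit, each through tumor 1. In each of them tumor 1 was the lowest. Its gap took 0.830 of the range of the 4 tumors in Rrp36, which passed only just, and 0.969 in Smo. The number of such series expected by chance was not tested. Rrp36, a processome factor, was at 3.73 log2 CPM in tumor 1, which is 1.02 below the nearest other tumor. Smo was at 3.84 log2 CPM, 2.91 below the nearest. The mean of the small subunit ribosomal proteins was 5.58 log2 CPM in tumor 1, 1.60 below the nearest, and that of the proliferation genes 2.93 log2 CPM, 3.56 below the nearest. Series of the same 4 tumors are not independent of each other, and the cause was not tested.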

How the results depend on the processing

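Against P7 cerebella the members were fitted higher in the tumors in all settings run, with a median log2 fold change between 1.11 and 1.52, but the number called moved. Of 42 members 32 were called, 37 with DESeq2 (all 32 among them), 33 with RLE factors, 32 without mitochondrial and rRNA genes, 29 without a filter, 21 with limma, 5 on total counts, 0 in a fit of the 2 groups alone (7 libraries), and between 0 and 41 with 1 library left out. Of all genes these settings called 3.99%, 9.29%, 4.11%, 4.03%, 2.22%, 1.2%, 1.05% and 0.206% higher. At the stricter limit 2 became 20 with DESeq2, 8 without a filter, 0 with limma, on total counts and in a fit of 2 groups, and between 0 and 22 with 1 library left out, where 0.26% of all genes became 2.44% with DESeq2, 0.424% without a filter, 0.141% with limma, 0.114% on total counts and 0% with 2 groups. Against SHH MB 6 became 19 with DESeq2, 7, 5 and 4 without mitochondrial and rRNA genes, with RLE factors and without a filter, 1 with limma, 0 on total counts and with 2 groups, and between 0 and 32 with 1 library left out. Of all genes, 2.43% became 7.87%, 2.44%, 2.29%, 1.68%, 0.692%, 1.46% and 0.337% in the same order. At the stricter limit 0 became 1 with DESeq2 and between 0 and 2 with 1 library left out. No share of all genes is given for the latter range, so it is not read as a result about the members. For SHH MB against P7 cerebella 0 became 23 with 2 groups and between 0 and 8 with 1 library left out, and the median of 0.57 became 0.61 with DESeq2, 0.62 without a filter, 0.46 on total counts and between 0.50 and 0.67 with 1 library left out. The replicate numbers of the labels did not pair the samples (r between -0.274 and 0.162 across genes for same-numbered libraries), and with a replicate block 3, 0 and 0 members were called in the 3 comparisons, against 0.551%, 0.771% and 0.0534% of all genes, 0 at the stricter limit. Against SHH MB the replicate block turned Dimt1 to -0.014 and Mphosph10 to -0.091, and with 1 library left out they ranged from -0.071 to 0.57 and from -0.034 to 0.35 (lowest without tumor 4). For SHH MB against P7 cerebella total counts gave -0.029 for Bysl and -0.00054 for Imp3, and with 1 library left out they ranged from -0.0056 to 0.22 (lowest without P7 cerebellum 1) and from -0.031 to 0.27 (lowest without P7 cerebellum 2). Of the values of the 22 named members over the alternatives, 274 against P7 cerebella, 315 against SHH MB and 374 for SHH MB against P7 cerebella kept direction and side of the threshold, 114 and 50 lost a call in the first 2, and 8, 27 and 18 gained one. Median levels per kb of canonical transcript, an alternative chosen after seeing the data, were 18.3 in tumors, 10.9 in SHH MB and 7.16 in P7 cerebella. Leaving out a library while keeping the genes tested, also added after seeing the data, gave between 0 and 41, 0 and 32, and 0 and 8 calls of members in the 3 comparisons. No share of all genes is given for this alternative, so these counts are not read as a result about the members. The cause was not tested. The MYC/SMARCA4 tumors differ from the other groups in age, host and cell content, which cannot be told apart from the construct. No member had fewer than 40 counts in a library.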
